A study of Homo sapiens with 2 samples.

Results

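The 6 genes described here belong to the lysosome and to autophagy: the proteases CTSB and CTSD, the hydrolase GUSB, the membrane protein LAMP2, the ATG8 protein GABARAPL1 and the receptor SQSTM1. They were chosen by gene symbol. In a table of transcript levels, 4 of them (CTSB, CTSD, SQSTM1 and GABARAPL1) had 1 transcript each, which is 4 of 993 transcripts and 4 of 812 genes. In a table of skipped exons, 5 of them (all but CTSD) had 29 of 35827 events, in a table of 9939 genes. LAMP2 and GUSB transcript levels were not analysed here.

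A549 is a human non-small cell lung cancer cell line, and paclitaxel is a drug that binds microtubules and disturbs the mitotic spindle. A549 cells received 7.22 nM paclitaxel or its solvent DMSO for 72 h, in F12K medium with serum in both groups. The treatment field of the control sample reads "None", and the protocol names DMSO. Each group has 1 library, so no value below has a replicate check, no test was possible, and "higher" and "lower" compare those libraries only.

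Lysosomes are acidic organelles in which proteases, glycosidases and other hydrolases digest material from endocytosis and autophagy. In autophagy a double membrane closes around cytoplasm and then fuses with the lysosome. ATG8 proteins such as GABARAPL1 are attached to that membrane, receptors such as SQSTM1 (p62) tie ubiquitinated cargo to them, and LAMP2 is among the most abundant proteins of the lysosomal membrane.

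All 4 member transcripts were higher with paclitaxel. The protease transcripts differed most, with a 21.5-fold ratio for CTSB and 10.4-fold for CTSD, followed by SQSTM1 at 9.89-fold and GABARAPL1 at 3.88-fold. Of all 993 transcripts, 46.1% were at least 2-fold higher, and 24.1% were at least 8-fold higher, which 3 of the 4 members were. Among the 458 transcripts at least 2-fold higher, 239 were at least 8-fold higher. The 40 transcripts listed at 0 with DMSO count as higher at both folds. For changed genes the study states a fold of 2 or more and an adjusted p below 0.05, and this table lists transcripts. The rule that kept them was not checked here, but no listed log2 ratio was smaller than 1.52 in size. A member could thus only be listed if it differed in this contrast, and nothing is read from the counts of 4 and 3.

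CTSB encodes cathepsin B, a lysosomal cysteine protease. Its listed transcript (ENST00000345125 of ENSG00000164733) had 1.89 FPKM in the DMSO library and 40.6 FPKM in the paclitaxel library, a log2 ratio of 4.43. FPKM counts fragments relative to transcript length and to the mapped fragments of the library, so levels of different genes can be set side by side per length. By the difference in log2(FPKM + 1), which damps ratios of low values, the CTSB transcript stood 6th of the 993 transcripts, at 3.85.

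CTSD encodes cathepsin D, the main aspartic protease of the lysosome. Its listed transcript (ENST00000438213 of ENSG00000117984) had 2.28 FPKM with DMSO and 23.7 FPKM with paclitaxel, a log2 ratio of 3.38. SQSTM1 encodes the receptor p62, which is itself degraded with its cargo. Its listed transcript (ENST00000422245 of ENSG00000161011) had 1.94 FPKM with DMSO and 19.2 FPKM with paclitaxel, a log2 ratio of 3.31. In the DMSO library the CTSB, CTSD and SQSTM1 transcripts lay close together, ranked 588, 568 and 583 of 993 by FPKM, and with paclitaxel they ranked 80, 104 and 121.

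GABARAPL1 encodes an ATG8 protein of the GABARAP branch. Its listed transcript (ENST00000266458 of ENSG00000139112) had 11.4 FPKM with DMSO and 44.1 FPKM with paclitaxel, a log2 ratio of 1.96. It had the smallest ratio of the 4 and the highest level in both libraries. Its gain of 32.8 FPKM lay between those of CTSB, 38.7 FPKM, and CTSD, 21.5 FPKM, while SQSTM1 gained 17.3 FPKM. The median log2 ratio of the 418 higher transcripts with a value above 0 in both libraries was 2.92, and GABARAPL1 lay below it.

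**Figure D1:**
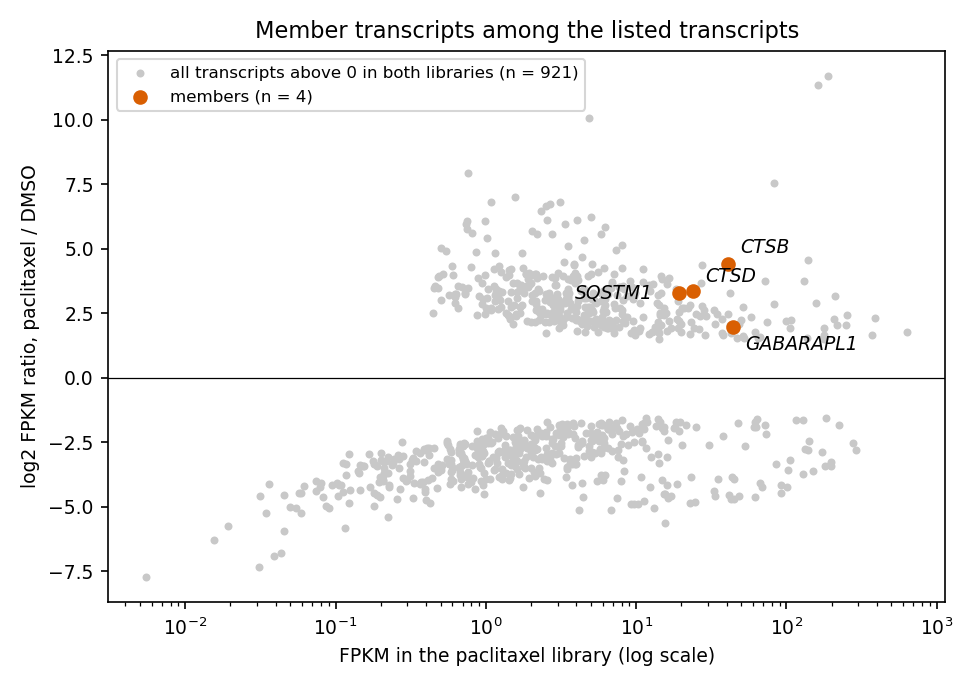
Each point is a transcript above 0 FPKM in both libraries, with its FPKM in the paclitaxel library on a log x axis and its log2 ratio, paclitaxel over DMSO, on the y axis; the 4 members are in orange. CTSB, CTSD and SQSTM1 have log2 ratios of 4.43, 3.38 and 3.31, and GABARAPL1 has the lowest at 1.96; no listed transcript has a log2 ratio smaller than 1.52 in size, which leaves an empty band around 0.

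FPKM values are shares of a library. The transcripts that stand for the 812 genes summed to 58597 FPKM in the DMSO library and 12778 FPKM in the other library, and the part of this difference in the members' ratios was not tested. In bulk RNA, more cells of a kind and more RNA per cell cannot be told apart. Markers of other cell types, and of lung epithelium, were also in the table. Of 18 erythroid markers, 3 were listed: HBA1 had 0.0615 and 161 FPKM with DMSO and paclitaxel, HBA2 had 0.0566 and 188 FPKM, and HBB was listed at 0 and had 108 FPKM. These globins summed to 0.118 and 458 FPKM. Macrophages are rich in cathepsins, and 1 of 24 macrophage and monocyte markers was listed, S100A9, with 0.123 and 5.85 FPKM. None of 14 lymphocyte and leukocyte markers was listed. The table holds only transcripts that differed, so an unlisted marker may have been present alike in both libraries or absent. Of 13 fibroblast and endothelial markers the table held ACTA2, with 6.23 and 34.5 FPKM. Of 18 lung epithelium markers it held the keratin KRT19, with 22.9 and 107 FPKM. The part of these markers in the members' ratios was not tested.

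The listed transcripts were set beside the MANE Select transcript of each gene, the reference form chosen jointly by RefSeq and Ensembl, in GENCODE 44 on hg38. For GABARAPL1 the listed transcript is the MANE Select form, with 4 exons and 1883 nt at chr12:10212877-10223128 on the plus strand. The antisense gene GABARAPL1-AS1 overlaps it by 601 nt, and the sources used here do not say whether strand entered the FPKM estimates. For CTSB, CTSD and SQSTM1 it is another form, so the values above are estimates for those forms and not for the whole gene.

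The CTSD form (chr11:1753383-1763927, minus strand) has 9 exons, as has the MANE Select form, but its exon 7 begins earlier, by 117 nt that are coding throughout and add 39 codons in frame. The intron before that exon is in no other annotated CTSD transcript. These 117 nt, at chr11:1754139-1754255, are shown because they are the only exon sequence of the listed form that the MANE Select form lacks. At its far end the listed form is shorter. The whole listed form also lies within the gene ENSG00000250644 on the same strand, the lncRNA gene ENSG00000229512 overlaps it by 741 nt on the same strand, and the lncRNA gene PRADX overlaps it by 2139 nt on the other strand, so its level is uncertain where reads could belong to either.
CTSD exon 7 extension: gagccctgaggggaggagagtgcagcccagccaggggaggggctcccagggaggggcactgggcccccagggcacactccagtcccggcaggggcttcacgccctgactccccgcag

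The SQSTM1 form (chr5:179818878-179824323, plus strand) holds 4 exons and 628 nt, against 8 exons and 2840 nt in the MANE Select form. Its first exon of 160 nt, 25.5% of its length, lies upstream of the MANE Select start and is noncoding, and the other exons are exons 2, 3 and 4 of the MANE Select form, up to its annotated end. The annotation marks its coding sequence as incomplete at the end. Its first intron is in no other annotated SQSTM1 transcript.

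The CTSB form has 11 exons and 2039 nt, against 10 exons and 3733 nt in the MANE Select form, and both have the same coding sequence of 1020 nt. It differs by a noncoding second exon of 119 nt, by a first exon that starts 3 nt earlier and by a shorter last exon. The 119 nt and the 3 nt, together 122 nt or 5.98% of its length, lie outside the MANE Select exons. The gene has 60 annotated transcripts, the most among the members, against 5 for LAMP2. Every intron of the listed CTSB form is also in another annotated CTSB transcript, so no intron marks this form alone. The annotation's transcript support level (1 is best, 5 weakest) is 5 for the CTSB form, 4 for SQSTM1, 2 for CTSD and 1 for GABARAPL1.

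By the distance between transcripts in log2(FPKM + 1) over both libraries, CTSD and SQSTM1 were each among the 3 nearest transcripts to the other, at a distance of 0.329. CTSD was also the third nearest to CTSB, at 0.773, after CRYAB, a small heat shock protein, at 0.578, and ATF3, a stress-induced transcription factor, at 0.633. CRYAB was the nearest to CTSD, at 0.196, with 2.14 and 27.1 FPKM. NRG1, a ligand of ERBB receptors, was the nearest to SQSTM1, at 0.128, with 1.72 and 18.5 FPKM, and the chemokine CXCL3 was near both SQSTM1 and CTSD, at 0.216 and 0.316. The nearest to GABARAPL1 were SERPINE2, RRM2B and C1S, at 0.134, 0.149 and 0.171. With only 2 libraries, a short distance says that a pair of transcripts had like levels in both and nothing more.

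The members were then set beside lists of 259 lysosome and autophagy genes, members included. The table held 21 of these genes (8.11%), of which 17 were at least 2-fold higher with paclitaxel and 4 lower. Over all 812 genes, 49.0% were higher and 51.0% lower. The median difference in log2(FPKM + 1) was 1.66 over the 21 genes and -0.97 over all genes. Without the members, 13 genes were higher and 4 lower, with a median of 1.63. The lists were written with earlier results of these data known, and the table holds only transcripts that differed. Nothing is therefore read from these counts and medians. Of the 23 listed transcripts of the list genes, 10 are MANE Select forms. The share of all annotated genes that the table holds was not computed. The counts of listed genes in each group below therefore only describe the table.

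Of 22 lysosomal proteases, 5 were listed and all 5 were higher. Beside CTSB and CTSD these were CTSA, the protective protein of β-galactosidase and neuraminidase, with 0.653 and 5.26 FPKM, and the cysteine cathepsins CTSO, with 0.353 and 2.15 FPKM, and CTSS, with 1.42 and 6.64 FPKM. Together the listed transcripts of the 5 had 6.59 and 78.4 FPKM, most of it from CTSB and CTSD. The CTSA transcript, like those of CTSB and CTSD, is not the MANE Select form, so the sum is not one of whole genes. Of 12 cystatins and other cathepsin inhibitors, 1 was listed: CST1, a secreted inhibitor of cysteine proteases, with 0.235 and 5.06 FPKM.

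The hydrolases other than proteases, GUSB's group, held 2 listed genes of 46. IDUA, which degrades glycosaminoglycans, had 0.370 and 3.0 FPKM. HYAL2, a hyaluronidase, had 2.26 and 0.0591 FPKM, so these transcripts differed in opposite directions. The IDUA transcript is not the MANE Select form. None of 42 lysosomal membrane proteins and transporters, LAMP2's group, and none of 22 subunits of the V-ATPase, the proton pump of the lysosome, was listed.

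Of 18 genes of the ATG8 family and its conjugation, GABARAPL1 was the one listed. Of 21 autophagy receptors, 4 were listed. Beside SQSTM1, OPTN, a receptor in the clearance of mitochondria and bacteria, had 5.80 and 20.0 FPKM for 1 transcript and 1.05 and 6.22 FPKM for another. TOLLIP had 4.26 and 0.725 FPKM, and CALCOCO2 (NDP52) had 4.30 FPKM and was listed at 0 with paclitaxel. Thus 2 receptors were higher and 2 lower, and none of their listed transcripts, SQSTM1 included, is the MANE Select form, so these are values of other forms and not of the whole genes.

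Of 41 genes for initiation, nucleation, membrane supply and fusion with the lysosome, 2 were listed. DRAM1, a p53 target in the lysosomal membrane, had 16.3 and 73.7 FPKM, above each of the 4 member transcripts in both libraries. Those of CTSB, CTSD and SQSTM1 are not the MANE Select forms, so the genes as wholes were not ranked. A form of RAB7A (ENST00000482525), the GTPase of late endosomes, had 10.5 FPKM and was listed at 0 with paclitaxel. Of 35 regulators, 6 were listed and all 6 were higher. Among them SESN1, SESN2 and SESN3, stress-induced inhibitors of mTORC1 signalling, had 2.52, 4.25 and 0.855 FPKM with DMSO and 14.5, 14.2 and 4.71 FPKM with paclitaxel. TP53INP1, a p53 target that binds ATG8 proteins, had 1.05 and 14.9 FPKM for 1 transcript and 1.54 and 14.1 FPKM for another. TP53INP2 was listed at 0 and had 2.39 FPKM, and FNIP1, a partner of folliculin, had 0.243 and 2.91 FPKM. TFEB, TFE3 and MITF, transcription factors of lysosomal genes, were not listed.

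**Figure D2:**
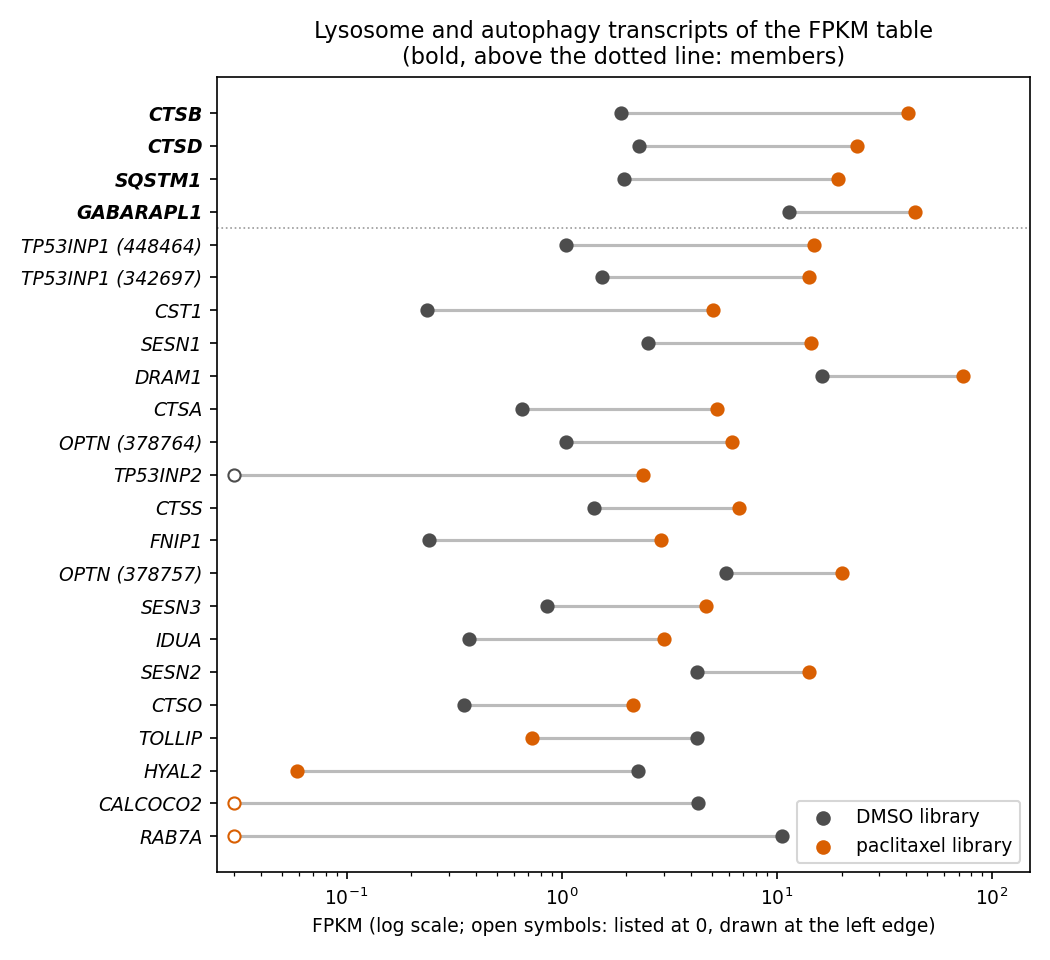
FPKM on a log axis of each listed lysosome and autophagy transcript in the DMSO library (grey) and the paclitaxel library (orange), 1 library each and without error bars, with the members above the dotted line; open symbols are values listed at 0. All 4 member transcripts are higher with paclitaxel, and the listed transcripts of TOLLIP, HYAL2, CALCOCO2 and RAB7A are lower.

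RefSeq promoter windows (GRCh38.p14), from 250 bases before to 50 after the start site, were found for 4 of the 6 genes, with 3 windows for SQSTM1 and 1 each for CTSD, GABARAPL1 and GUSB. They were searched on both strands for CACGTG, the E-box core that TFEB and related factors bind, TGACGTCA, the element bound by CREB and ATF factors, TGACTCA, the AP-1 element, and TGACNNNGC, the core of the antioxidant response element. CACGTG was in the CTSD window, 47 bases before the start, and in 7.26% of 35116 windows. TGACGTCA was in the GABARAPL1 window, 30 bases before the start, and in 1.85% of windows. TGACNNNGC was at 2 places in the CTSD window and in 13.3% of windows, and TGACTCA was in none of the members' windows and in 4.95% of all. The stretches around the E-box core and the CREB element are shown with the motif in capitals, at chr11:1763939-1764004 (minus strand) and chr12:10212817-10212876 (plus strand). A match is only a description of these letters.
CTSD promoter: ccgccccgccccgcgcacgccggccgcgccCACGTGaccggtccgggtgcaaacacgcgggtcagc
GABARAPL1 promoter: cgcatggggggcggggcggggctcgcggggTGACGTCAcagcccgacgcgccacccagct

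The skipped exon table gives, for each event, an exon that is either kept or left out between a pair of neighbouring exons. The 29 events of the members concern 25 distinct exons of 64 to 352 nt, with a median of 138 nt, against 121 nt over the 31197 distinct exons of the table. All 25 have exact boundaries in GENCODE 44 and are flanked by AG and GT. An exon whose length is a multiple of 3 can be left out without a shift of frame, and 9 of the 25 were of such a length (36%), against 41.1% of all exons of the table. In 24 events the junction made by skipping is annotated, and in 5 it is not. The values per library in this table are named sample 1 and sample 2 with no condition, so a difference between DMSO and paclitaxel in the use of these exons was not analysed here.

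CTSB had 12 events over 8 exons, more than 96.8% of the genes in the table, whose median was 3 events. SQSTM1 and GUSB had 6 each, GABARAPL1 had 3 and LAMP2 had 2. Of the 8 CTSB exons, 5 are noncoding and lie between the first and second exons of the MANE Select form, with 138, 88, 134, 74 and 83 nt. The 74-nt exon shares its upstream edge with the 119-nt second exon of the CTSB form listed with FPKM values. The other CTSB exons are exon 5 (119 nt), exon 7 (144 nt) and a 141-nt stretch that overlaps the last exon. Skipping of exon 5 is annotated in 1 transcript and skipping of exon 7 in 5.

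**Figure D3:**
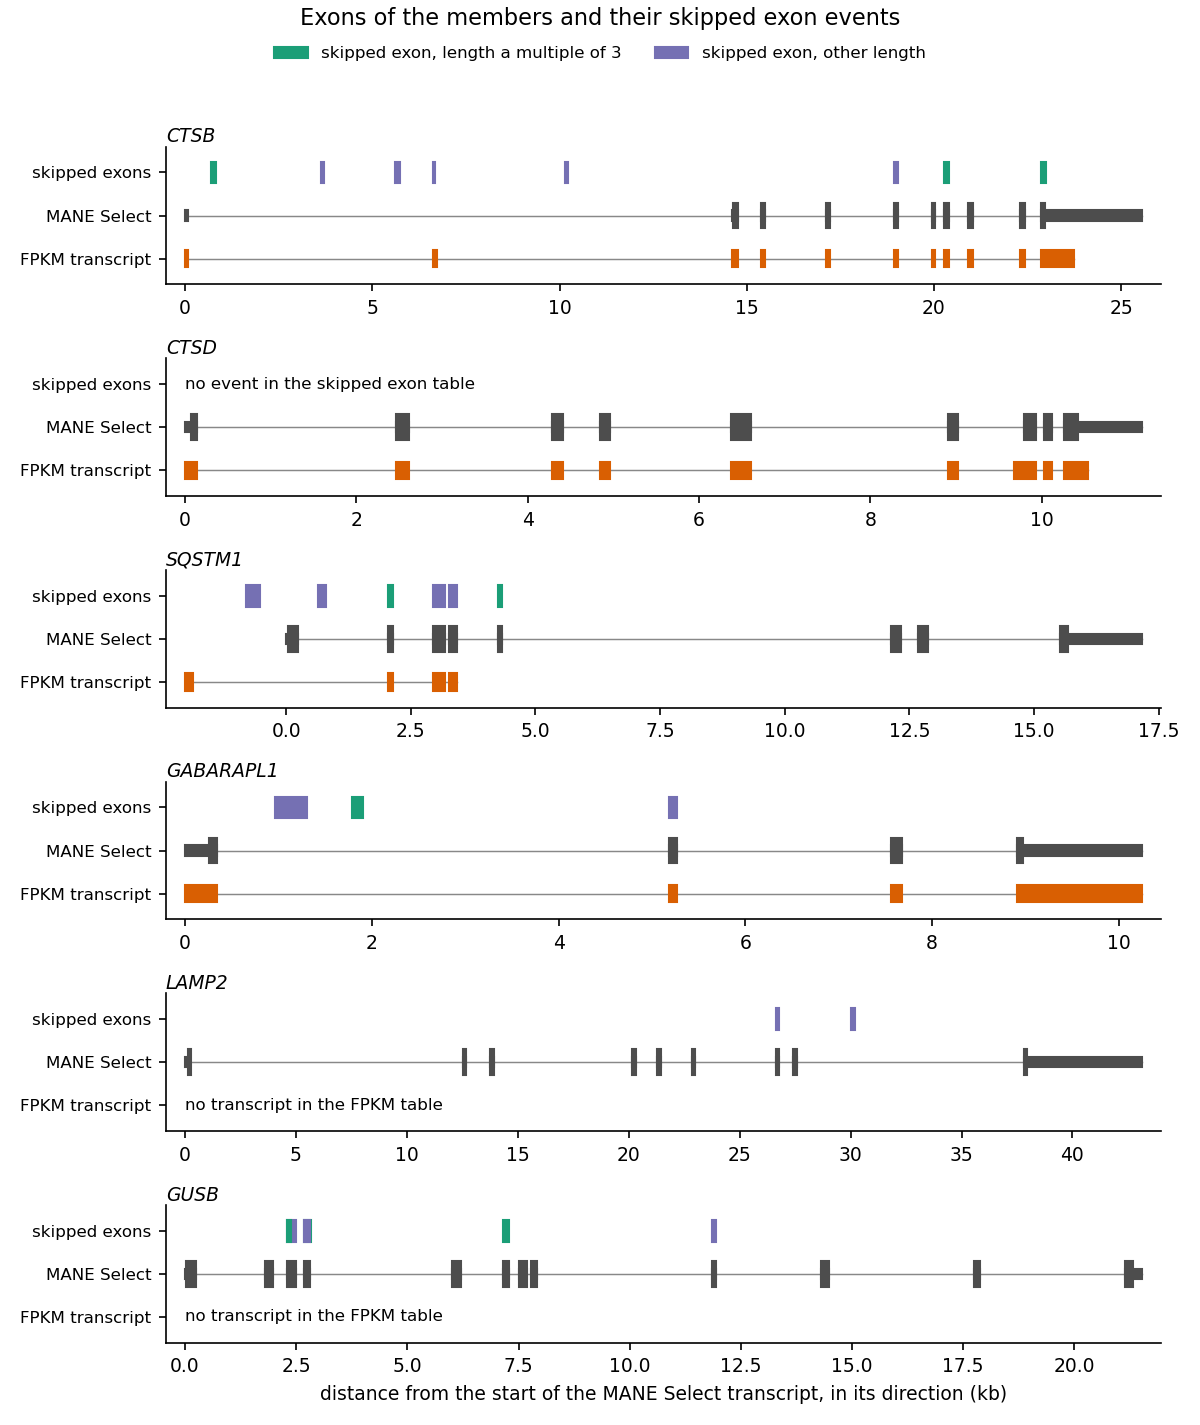
Exons of each gene drawn to scale against distance in kb from the start of the MANE Select transcript, with coding parts taller in the MANE Select row; skipped exons are in the upper row (green, length a multiple of 3; purple, other) and the transcript with FPKM values is in orange. CTSB has 5 skipped exons in the long first intron, SQSTM1's FPKM transcript ends after MANE Select exon 4, and CTSD has no event.

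Of the 25 exons, 12 are exons of the MANE Select form. The frame that would be left was read from the MANE Select transcript with that exon alone removed. For 9 of the 12 the event has the MANE Select neighbours, and for SQSTM1 exons 2 and 4 and GUSB exon 4 it has others. In 4 of the 12, the length is a multiple of 3 and removal leaves 85.8% to 93.9% of the codons, with 27 to 51 lost. In the other 8 the frame shifts and a stop comes 57 to 1169 nt before the last exon junction. The codons read up to that stop number 22.1% to 78.8% of the full frame. They include the codons after the removed exon, which are read out of the original frame. A stop well upstream of the last junction is a known mark of transcripts subject to nonsense-mediated decay, which these data did not measure.

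**Figure D4:**
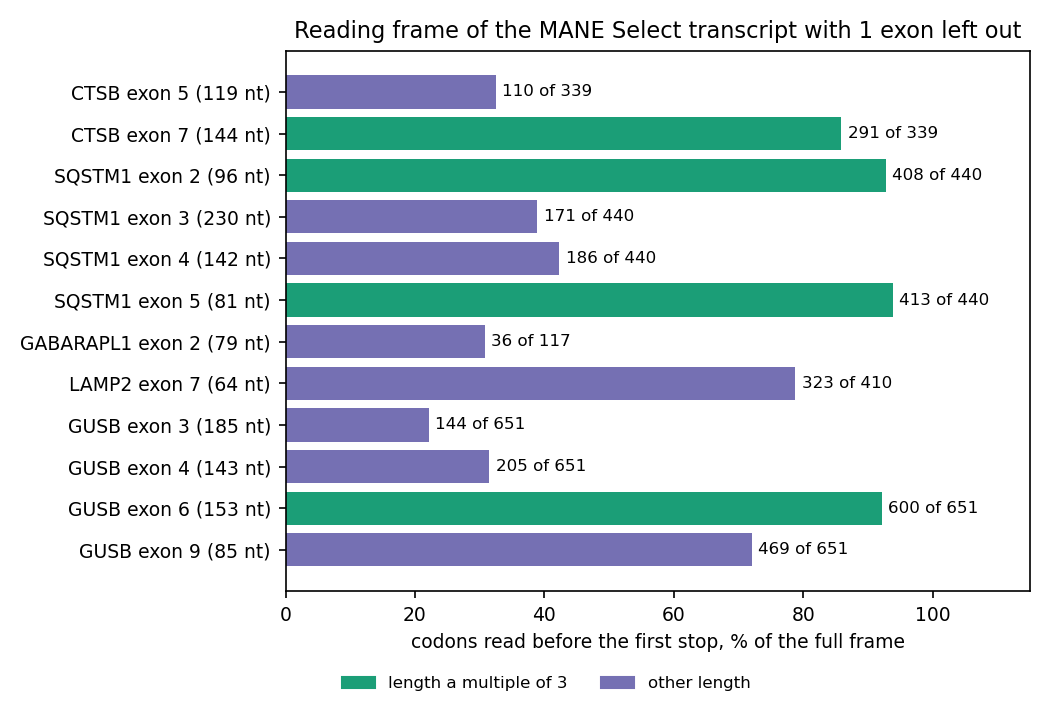
Codons read before the first stop, as a percentage of the full frame, when 1 exon is removed from the MANE Select transcript; green bars are exons with a length that is a multiple of 3 and purple bars are others. Green bars lie between 85.8% and 93.9%, and purple bars between 22.1% for GUSB exon 3 and 78.8% for LAMP2 exon 7.

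Among the autophagy members, removal of GABARAPL1 exon 2 shifts the frame, with 36 codons read before a stop against 117 in the full frame. Skipping of this exon is annotated in 2 transcripts. The other GABARAPL1 exons, of 352 and 111 nt, lie in the first intron of the MANE Select form. For SQSTM1, removal of exon 2 or exon 5 keeps the frame and leaves 408 or 413 of 440 codons. Removal of exon 3 or exon 4 shifts the frame, with 171 or 186 codons read before a stop. None of these 4 SQSTM1 events has an annotated skipping junction. Exons 2, 3 and 4 are also in the SQSTM1 form with FPKM values. The remaining SQSTM1 exons have 284 and 157 nt and lie outside the MANE Select exons, and the form with FPKM values is the annotated one that skips the 284-nt exon.

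Among the lysosomal members, removal of LAMP2 exon 7 shifts the frame, with 323 codons read before a stop against 410 in the full frame. Skipping of this exon is not annotated. The second LAMP2 exon, of 218 nt at chrX:120439076-120439293, is in 1 annotated transcript, and the MANE Select form skips it. For GUSB, β-glucuronidase, removal of exon 6 leaves 600 of 651 codons in frame. Removal of exon 3, 4 or 9 shifts the frame, with 144, 205 or 469 codons read before a stop. All 6 GUSB events have an annotated skipping junction, and the other GUSB exons, of 78 and 156 nt, are variants of exons 3 and 4.

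A few of these coding exons are shown to set exons that shift the frame (GABARAPL1 exon 2, LAMP2 exon 7 and GUSB exon 9) beside exons that keep it (SQSTM1 exons 2 and 5). They were read from hg38 at chr12:10218061-10218143 (plus), chrX:120442597-120442664 (minus), chr7:65970280-65970368 (minus), chr5:179822956-179823055 (plus) and chr5:179825144-179825228 (plus). Lower case is the exon, and capitals mark the 2 intron bases on each side.
GABARAPL1 exon 2: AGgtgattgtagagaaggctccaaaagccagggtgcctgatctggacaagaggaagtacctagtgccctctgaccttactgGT
LAMP2 exon 7: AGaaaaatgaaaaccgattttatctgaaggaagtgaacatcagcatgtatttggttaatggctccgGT
GUSB exon 9: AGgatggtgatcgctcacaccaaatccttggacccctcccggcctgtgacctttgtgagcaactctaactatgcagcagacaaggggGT
SQSTM1 exon 2: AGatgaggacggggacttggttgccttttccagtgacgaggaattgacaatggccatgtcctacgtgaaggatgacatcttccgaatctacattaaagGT
SQSTM1 exon 5: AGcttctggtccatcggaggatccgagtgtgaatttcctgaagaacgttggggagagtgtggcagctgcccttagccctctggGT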

How the data were processed

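RNA from 1 library per group was sequenced by the study. CASAVA 1.8.2, Cufflinks, TopHat and build hg38 are named in the notes of the submitters, and MapSplice in the study's methods. The skipped exon table has the layout of MATS, whose version the sources used here do not give. For splicing changes the study's methods name MISO and not MATS. The deposited FPKM values were estimated per transcript by the authors. The listed transcripts were taken to be those past the study's fold and adjusted p, which it states for genes. Depth is unknown, so no interval is given. The column with the suffix T was taken as paclitaxel. The 3 comparison columns of the FPKM table (fold change, p-value, q-value) and 3 of the skipped exon table (p-value, FDR, inclusion difference) were not used, nor were 6 columns per library of the latter, which name no condition.

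Log2 ratios used no pseudocount, and zeros gave none. A gene took its transcript with the highest FPKM. Of 993 transcripts, 948 were found in GENCODE 44, and 342 of 346 list genes were matched by symbol. Analyses used Python 3.11.15, numpy 2.4.6 and pandas 2.3.3 and were tested on simulated data. The members and lists were chosen with earlier results of these data known. The genes named are all members, every listed gene of lists with 6 or fewer, the 3 nearest transcripts of each member and every listed marker. Outside this rule, genes that overlap a listed member transcript and the unlisted regulators TFEB, TFE3 and MITF were named after the values were seen.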

Additional observations from a re-analysis of the deposited data

How the results depend on the processing

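With a pseudocount of 1 FPKM the log2 differences of CTSB, CTSD, SQSTM1 and GABARAPL1 were 3.85, 2.92, 2.78 and 1.87, and with 0.1 FPKM they were 4.36, 3.33, 3.24 and 1.95, so the order of the 4 was kept. When each library had to hold 1 FPKM or more, 10 list genes were higher and 0 lower, against 17 and 4 as reported, because the filter removes genes that are low in 1 library. At a fold of 4, 3 member transcripts were higher, and 14 list genes were higher and 4 lower. No paired analysis was possible because each group has 1 library. Depth is unknown, and levels of unlisted transcripts were not analysed here.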
